A study of Mus musculus with 51 samples.

Results

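Midbrain dopaminergic neurons (mDA) and serotonergic neurons (5HT) of wild-type mice were compared across all measured genes. The members are every library whose genotype label is wt: 25 of the 51 libraries in the series, 17 of mDA and 8 of 5HT neurons. The series as a whole asks what Polycomb repressive complex 2, a chromatin repressor that contains Eed, does in these neurons, and its mutant libraries were not used here. Cells were sorted by flow cytometry (FACS) from adult mouse midbrain and their RNA was amplified with Smart-seq2, a full-length protocol for small amounts of RNA; the marker used for sorting and the number of cells per library are not given in the labels.

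The 17 mDA libraries came from wt animals of the strain DatCreEed, 9 at 4 months (4 female, 5 male) and 8 at 8 months (3 female, 5 male). The 8 5HT libraries came from wt animals of the strain SertCreEed, 4 at 4 months (2 female, 2 male) and 4 at 8 months (3 female, 1 male). Each library carries the name of its own animal. Both strains are named for a Cre recombinase under the control of a transporter gene, Slc6a3 (the dopamine transporter, Dat) or Slc6a4 (the serotonin transporter, Sert), and for the Eed gene; whether wt animals carried a Cre or an Eed allele is not given in the labels. All 5HT libraries were in the sequencing batch set1, while 7 mDA libraries were in set1, 6 in set2 and 4 in set3. Cell type and strain cannot be told apart, neither over all libraries nor within set1. Because batches were uneven between cell types, the difference within set1 (7 mDA against 8 5HT libraries) is given beside the full one.

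Both neuron types make a monoamine, load it into vesicles with the same carrier and use the same decarboxylase. They part at the first enzyme, tyrosine hydroxylase for dopamine and tryptophan hydroxylase for serotonin, and at the transporter that takes the released amine back up. Dopaminergic neurons of the ventral midbrain project to the striatum and cortex and serve movement and reward; serotonergic neurons of the raphe nuclei project widely over the brain and serve mood, sleep and stress responses. Each identity is held by its own transcription factors, such as Nr4a2 and Pitx3 in dopaminergic and Fev, Gata2 and Gata3 in serotonergic neurons.

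Total counts ran from 1644460 to 12250492 in mDA and from 3211468 to 6344738 in 5HT libraries, and 3 counts, the limit that a count of 0 allows, corresponded to 0.252 to 1.82 CPM, counts scaled by library size. The label of each cell type was checked against its markers. The summed level of 8 serotonergic markers was 14.7 to 65.2 CPM in mDA and 4590 to 7150 CPM in 5HT libraries. That of 9 dopaminergic markers was 5430 to 9910 CPM in mDA and 2610 to 4150 CPM in 5HT libraries. Of these 9 markers 7 were higher in mDA, Ddc was higher in 5HT and Slc18a2 was not called. Neither sum overlapped between the labels over the 25 libraries. Markers of other cells were also present. The summed level of 12 oligodendrocyte markers was 463 to 1640 CPM in mDA and 718 to 1760 CPM in 5HT libraries. Of these markers 5 were higher in 5HT, Mbp, Cnp, Mobp and Trf among them, and 7 were not called. The 10 endothelial and mural markers summed to 8.6 to 58.3 CPM in mDA and 31.3 to 112 CPM in 5HT. Cldn5, Ly6c1, Slco1a4 and Pdgfrb were higher in 5HT, and the other 6 were not called. The 13 astrocyte markers summed to 459 to 933 and 391 to 967 CPM. A difference in the share of such cells and one in RNA per cell cannot be told apart in bulk libraries. Libraries C250 (mDA, 8 months, the shallowest) and S369 (5HT, 4 months) stood apart from the others of their groups on the principal components.

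Of 16178 genes with enough counts, 3513 (21.7%) were called different between the cell types (edgeR quasi-likelihood test, Benjamini-Hochberg adjusted p under 0.05): 1835 (11.3%) were higher in mDA and 1678 (10.4%) higher in 5HT. At least 4-fold differences were called for 793 genes (4.90%), 609 higher in mDA and 184 higher in 5HT. Differences are log2 fold changes of mDA minus 5HT, averaged over 4 and 8 months, with standard errors; a positive value means a higher level in mDA. Without libraries C250 and S369, 2145 genes were called higher in mDA and 1728 higher in 5HT. Within set1 the numbers were 1009 and 987. The genes of 16 lists of neuronal function held 1014 tested members, of which 286 were higher in mDA and 162 higher in 5HT, that is 44.2% called against 21.7% of all genes; their median difference was 0.21, against 0.03 over all genes.

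Promoters of the transmitter genes on which the comparison turns are shown first, because Th, Slc6a3, Tph2 and Slc6a4 separated the cell types completely while Slc18a2, the shared vesicular carrier, did not. The windows are RefSeq entries on GRCm38.p6, from 250 bases before to 50 bases after the annotated start, read 5′ to 3′ on the gene's own strand. Capitals mark matches, on either strand, to the cyclic AMP response element TGACGTCA, the TATA box TATAAA, the GATA motif AGATAA, the Nr4a2 motif AAAGGTCA or the ETS core CGGAAG.
Th: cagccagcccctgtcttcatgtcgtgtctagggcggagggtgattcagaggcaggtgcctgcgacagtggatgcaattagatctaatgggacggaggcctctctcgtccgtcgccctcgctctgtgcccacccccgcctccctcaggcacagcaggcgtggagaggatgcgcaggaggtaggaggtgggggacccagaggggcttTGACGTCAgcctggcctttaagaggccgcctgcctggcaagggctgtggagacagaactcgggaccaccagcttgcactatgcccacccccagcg
Slc6a3: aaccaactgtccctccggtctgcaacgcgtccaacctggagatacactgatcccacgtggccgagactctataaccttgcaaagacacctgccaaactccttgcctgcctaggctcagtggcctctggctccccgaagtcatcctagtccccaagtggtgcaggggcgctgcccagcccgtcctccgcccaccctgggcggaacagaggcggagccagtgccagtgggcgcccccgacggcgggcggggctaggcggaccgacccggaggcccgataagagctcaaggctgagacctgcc
Tph2: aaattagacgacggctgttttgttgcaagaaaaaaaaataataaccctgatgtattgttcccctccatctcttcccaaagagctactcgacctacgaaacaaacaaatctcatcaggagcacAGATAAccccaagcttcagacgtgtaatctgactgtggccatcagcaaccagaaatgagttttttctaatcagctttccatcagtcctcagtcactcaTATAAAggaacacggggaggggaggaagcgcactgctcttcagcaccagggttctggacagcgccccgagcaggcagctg
Slc6a4: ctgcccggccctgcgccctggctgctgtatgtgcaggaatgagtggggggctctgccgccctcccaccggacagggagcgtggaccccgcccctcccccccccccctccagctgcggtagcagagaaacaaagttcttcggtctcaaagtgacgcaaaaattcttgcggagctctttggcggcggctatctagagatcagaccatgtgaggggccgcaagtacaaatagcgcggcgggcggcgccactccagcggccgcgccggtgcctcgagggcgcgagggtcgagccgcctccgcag
Slc18a2: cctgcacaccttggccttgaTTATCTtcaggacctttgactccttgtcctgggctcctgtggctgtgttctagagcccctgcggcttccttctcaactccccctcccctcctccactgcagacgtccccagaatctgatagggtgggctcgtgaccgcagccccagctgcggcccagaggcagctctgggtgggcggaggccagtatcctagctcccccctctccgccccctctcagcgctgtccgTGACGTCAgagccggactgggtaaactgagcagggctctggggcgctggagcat

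The Th window (chr7:142899946-142900245, minus strand) held 1 place with TGACGTCA, a palindrome that counts on both strands, starting 45 bases before the start. The Slc18a2 window (chr19:59260628-59260927, plus strand) held the same letters 4 bases before the start, and AGATAA on the opposite strand, written TTATCT above, 230 bases before it. The Tph2 window (chr10:115184973-115185272, minus strand) held TATAAA 30 bases before the start and AGATAA 128 bases before it. The windows of Slc6a3 (chr13:73536497-73536796, plus strand) and Slc6a4 (chr11:76998347-76998646, plus strand) held none of the 5 motifs. Of 32851 RefSeq windows of this length, 1.79% held TGACGTCA, 13.6% TATAAA, 11.2% AGATAA, 1.51% AAAGGTCA and 16.9% CGGAAG on either strand. Among the regulators, the Fev window (chr1:74885359-74885658, minus strand) held AGATAA 118 bases before the start. The Nr4a2 window held TATAAA 164 bases and the En1 window CGGAAG 152 bases before the start, on the opposite strand. AGATAA was not confined to genes higher in 5HT. It also lay in a window of Cck (189 bases before), Aldh1a1 (32) and Rreb1 (22), all higher in mDA. A window of Hcrtr1, higher in 5HT, held it 225 bases before the start. These matches describe letters and not binding.

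The hydroxylases separated the cell types without overlap. Th, tyrosine hydroxylase, stood at 1020, 1760 and 2650 CPM (lowest, median and highest of the 17 mDA libraries) and at 3.06, 14.4 and 35.6 CPM in the 8 5HT libraries. Its difference was 6.90 ± 0.26 (SE; adjusted p = 1.11e-20), and 6.71 within set1. Tph2, the neuronal tryptophan hydroxylase, stood at 1.27, 4.24 and 27.7 CPM in mDA and at 1970, 2720 and 3370 CPM in 5HT. Its difference was -8.65 ± 0.45 (adjusted p = 9.5e-13), and -8.94 within set1. The lowest 5HT library was 71.1 times above the highest mDA library for Tph2, and the lowest mDA library was 28.7 times above the highest 5HT library for Th. Tph1, the hydroxylase of peripheral tissues and pineal, was at medians of 1.41 and 4.52 CPM and was not called.

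Plasma membrane uptake followed the same split. Slc6a3 stood at 1380, 2900 and 3600 CPM in mDA and at 1.03, 16.2 and 32.2 CPM in 5HT (7.66 ± 0.39, within set1 7.63). Slc6a4 stood at 0, 1.54 and 10.6 CPM in mDA and at 2040, 2530 and 2820 CPM in 5HT (-10.18 ± 0.36, within set1 -9.25). Neither gene's groups overlapped. Slc6a2, the noradrenaline transporter, stood at medians of 1.77 and 1.55 CPM and was not called. The shared steps were at similar levels. Slc18a2, the vesicular monoamine transporter, stood at 1560, 2210 and 2790 CPM in mDA and at 1560, 2740 and 3200 CPM in 5HT, with groups that overlapped and a difference of -0.28 ± 0.11 (adjusted p = 0.0604; within set1 -0.42, adjusted p = 0.0314). Ddc, the aromatic amino acid decarboxylase, stood at 451, 710 and 966 CPM in mDA and at 741, 974.8 and 1110 CPM in 5HT. Its difference of -0.34 ± 0.13 (adjusted p = 0.0446) passed narrowly; leaving out any 1 of the 8 5HT libraries gave values between -0.37 and -0.30, none of which passed, and within set1 it was -0.67 (adjusted p = 0.00146).

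**Figure D1:**
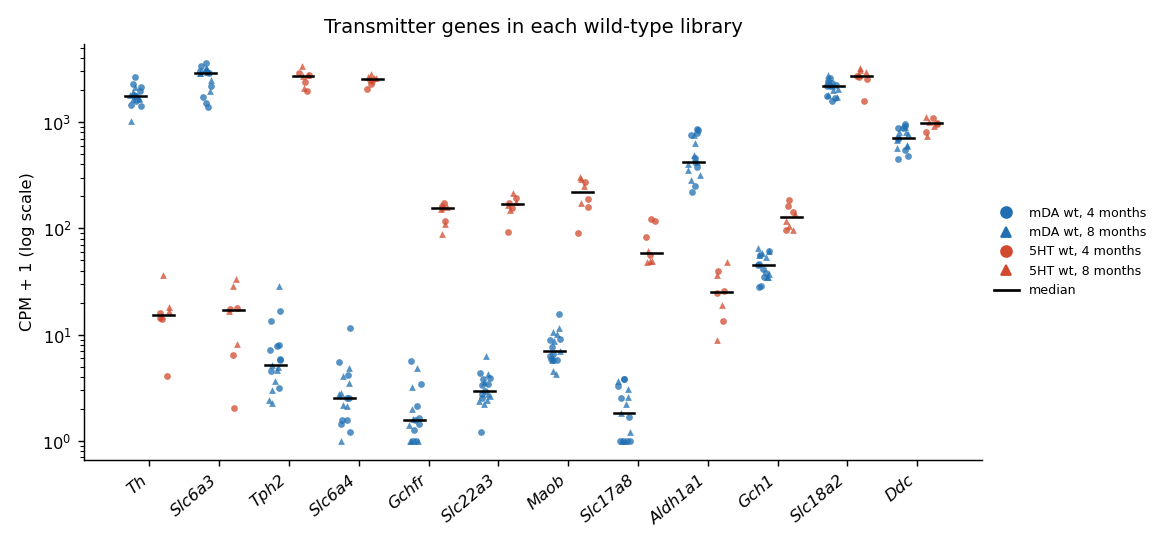
Level of 12 genes of monoamine synthesis, uptake, cofactor supply and breakdown in each of 25 wild-type libraries, as CPM + 1 on a log axis; blue points are mDA, red points 5HT, circles 4 months, triangles 8 months, and bars medians. Th and Slc6a3 are high only in mDA, Tph2 and Slc6a4 only in 5HT, and Slc18a2 and Ddc overlap.

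Of 7 genes for tetrahydrobiopterin, the cofactor of both hydroxylases, 4 were called higher in 5HT, 0 higher in mDA and 3 were not called, where 10.4% of all genes were higher in 5HT. Gchfr encodes the feedback regulator of the first enzyme, GTP cyclohydrolase. It stood at 0, 0.564 and 4.62 CPM in mDA and at 88.5, 153 and 173 CPM in 5HT. Its groups did not overlap, and the difference was -6.76 ± 0.45 (adjusted p = 3.83e-12; within set1 -7.19). Gch1, the cyclohydrolase itself, stood at 27.3, 44.1 and 64.4 CPM in mDA and at 95.4, 126 and 184 CPM in 5HT (-1.46 ± 0.15, within set1 -1.60), again without overlap. Pts, the next enzyme of the pathway, differed by -1.09 ± 0.19 (within set1 -1.17), and Qdpr, which recycles the cofactor, by -0.87 ± 0.18 (within set1 -0.65, adjusted p = 0.0928).

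Breakdown and low-affinity uptake also separated the cell types. Maob, monoamine oxidase B, stood at 3.27, 5.99 and 14.8 CPM in mDA and at 90.2, 220 and 306 CPM in 5HT, without overlap (-4.80 ± 0.19, adjusted p = 9.79e-20; within set1 -4.62). Its paralog Maoa was closer, with medians of 43.8 and 69.0 CPM (-0.54 ± 0.17, adjusted p = 0.018; within set1 -0.45, adjusted p = 0.236), and did not pass without library S367 (-0.49, adjusted p = 0.0609) or S381 (-0.45, adjusted p = 0.0662). Per kilobase of transcript, Maob was above Maoa in 5HT, at 89.6 ± 31.2 RPKM (SD, n = 8) against 17.4 ± 5.01 RPKM, and below it in mDA, at 2.87 ± 1.22 RPKM (SD, n = 17) against 11.5 ± 3.12 RPKM. Slc22a3, an organic cation transporter that carries monoamines, stood at 0.22, 1.97 and 5.37 CPM in mDA and at 91.5, 168 and 213.1 CPM in 5HT (-6.13 ± 0.22, within set1 -5.88). Slc29a4, the plasma membrane monoamine transporter, was higher in 5HT by a smaller margin (-1.47 ± 0.20, within set1 -1.31), with medians of 16.3 and 42.7 CPM and groups that did not overlap. Aldh1a1, an aldehyde dehydrogenase that handles dopamine-derived aldehydes and retinal, went the other way, at 220, 421 and 861 CPM in mDA and 7.93, 24.1 and 46.9 CPM in 5HT (4.34 ± 0.35, within set1 3.61). Its close copy Aldh1a7 differed by 4.98 ± 0.51; reads may be split between these near-identical genes, so its value is uncertain.

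Among amino acid transmitter genes, Slc17a8, the vesicular glutamate transporter VGLUT3, marked the 5HT libraries, at 0, 0.816 and 2.87 CPM in mDA and at 47, 58.2 and 122 CPM in 5HT (-6.00 ± 0.44, within set1 -5.37). Slc17a6, the vesicular glutamate transporter VGLUT2, was higher in mDA, at 59.2, 88.5 and 131 CPM against 7.42, 52.2 and 72.7 CPM in 5HT (1.11 ± 0.25, within set1 1.52), with groups that overlapped. The glutamate uptake carrier Slc1a2 (2.17 ± 0.14) was higher in mDA without overlap. Slc1a2 is also an astrocyte marker; of the other 12 astrocyte markers, 11 were not called and Apoe was higher in 5HT, and the part of astrocyte RNA in the Slc1a2 value was not tested. Slc6a5, the glycine transporter of glycinergic neurons, was higher in 5HT (-2.86 ± 0.62), with 5HT libraries from 0.339 to 52.1 CPM, but the within-set1 value was -1.10 (adjusted p = 0.313). Over the whole list of 89 tested transporters, 23 were higher in mDA and 14 higher in 5HT, against 11.3% and 10.4% of all genes. Within set1 the numbers were 13 and 12, and the median difference of the list was -0.03. Among carriers of other substrates, Slc24a3, a potassium-dependent sodium-calcium exchanger, was higher in mDA (2.58 ± 0.15), and the neuronal amino acid carrier genes Slc7a14 (-1.36 ± 0.17) and Slc7a8 (-1.08 ± 0.14) were higher in 5HT. The glucose carrier Slc2a1 was higher in 5HT as well (-1.27 ± 0.21); it is strongly expressed by endothelial cells, whose summed markers had medians of 19.5 CPM in mDA and 85.2 CPM in 5HT, and their part in this value was not tested.

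Of 11 tested nicotinic acetylcholine receptor subunits 6 were higher in mDA and 0 higher in 5HT, against 11.3% and 10.4% of all genes, and the median difference of the 11 was 2.80. Chrna6, a subunit concentrated in midbrain dopaminergic neurons, stood at 242, 408 and 778 CPM in mDA and at 0.18, 1.91 and 4.50 CPM in 5HT (7.67 ± 0.33, within set1 7.42). Chrnb3, its usual partner, stood at 266, 375 and 470 CPM in mDA and at 0, 2.75 and 6.65 CPM in 5HT (7.27 ± 0.31, within set1 7.35). Chrna4, part of the high-affinity nicotine receptor, stood at 194, 302 and 396 CPM in mDA and at 12.9, 39.0 and 48.5 CPM in 5HT (3.10 ± 0.20, within set1 3.07). None of these groups overlapped. Chrna3 (4.35 ± 0.57, within set1 3.63) and Chrna5 (3.91 ± 0.52, within set1 3.42) followed at lower levels. Chrnb2, the common beta subunit, was at 52.7, 135 and 255 CPM in mDA and 109, 131 and 166 CPM in 5HT, a difference of 0.01 with a 95% interval from -0.33 to 0.35. Per kilobase the mDA order was Chrna6 (155 ± 45 RPKM), Chrnb3 (81.4 ± 13.6), Chrna4 (63.0 ± 11.3) and Chrnb2 (22.7 ± 8.34), all SD with n = 17, while in 5HT Chrnb2 (20.9 ± 2.79 RPKM, SD, n = 8) was above Chrna4 (7.67 ± 3.05). The spreads of Chrnb3 and Chrna4 in mDA overlapped. Chrnb4, at medians of 0.846 and 0.172 CPM, was called higher in mDA (2.80 ± 1.02, adjusted p = 0.0472) but lost this call in 12 alternative settings, among them each of 7 that left out 1 5HT library (2.51 to 2.90), and Chrna7 was not called.

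Autoreceptors of the cells' own transmitter split as the transmitters did. Drd2, the inhibitory dopamine autoreceptor, stood at 52.1, 75.3 and 108 CPM in mDA and at 0, 0.817 and 3.36 CPM in 5HT (6.20 ± 0.32, within set1 6.61). Htr1a, the somatodendritic serotonin autoreceptor, stood at 0, 3.44 and 7.74 CPM in mDA and at 47.4, 133 and 148 CPM in 5HT (-4.93 ± 0.30, within set1 -4.85), the lowest 5HT value being that of library S369. Neither gene's groups overlapped. Of 11 serotonin receptor genes tested, 4 were higher in 5HT, against 10.4% of all genes. Besides Htr1a these were the terminal autoreceptors Htr1b (-5.28 ± 0.74) and Htr1d (-4.46 ± 0.50) and Htr5b (-3.01 ± 0.39). Htr2c, an excitatory serotonin receptor, was the 1 called higher in mDA, at 29.5, 39.2 and 81.6 CPM against 14.5, 18.9 and 35.9 CPM (1.15 ± 0.22, within set1 1.23), with overlap. The other dopamine receptors were low: Drd1 was not called at medians of 3.99 and 0.637 CPM but passed without S369 (2.98, adjusted p = 0.00321), and Drd3, Drd4 and Drd5 had too few counts to test.

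Receptors for noradrenaline, histamine and acetylcholine were divided between the cell types by subtype. Adra1b, an excitatory adrenergic receptor, stood at 7.88, 13.4 and 20.7 CPM in mDA and 42.7, 74.5 and 93.4 CPM in 5HT (-2.39 ± 0.16, within set1 -2.23). Hrh1, the excitatory histamine receptor, stood at 0, 2.04 and 8.86 CPM in mDA and 13.3, 28.7 and 45.2 CPM in 5HT (-3.26 ± 0.43, within set1 -4.04). Both were separate between the groups. The beta adrenergic receptors Adrb1 (5.75 ± 0.54) and Adrb3 (4.68 ± 0.47) were higher in mDA, and the mDA median of Adrb3 was 23.3 CPM. Chrm5, the muscarinic receptor known from dopaminergic neurons, stood at 4.24, 9.59 and 15.9 CPM in mDA and at 0, 0 and 0.9 CPM in 5HT (6.86 ± 0.66, within set1 7.04). Lpar1, a lysophosphatidic acid receptor, was higher in 5HT (-2.55 ± 0.21, within set1 -2.30); it is also expressed by oligodendrocytes, of whose 12 summed markers the medians were 932 CPM in mDA and 1270 CPM in 5HT, and their part was not tested. Across 52 tested metabotropic receptors 14 were higher in mDA and 13 higher in 5HT, against 11.3% and 10.4% of all genes. Within set1 the numbers were 10 and 11, and the median difference of the list was 0.42.

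**Figure D2:**
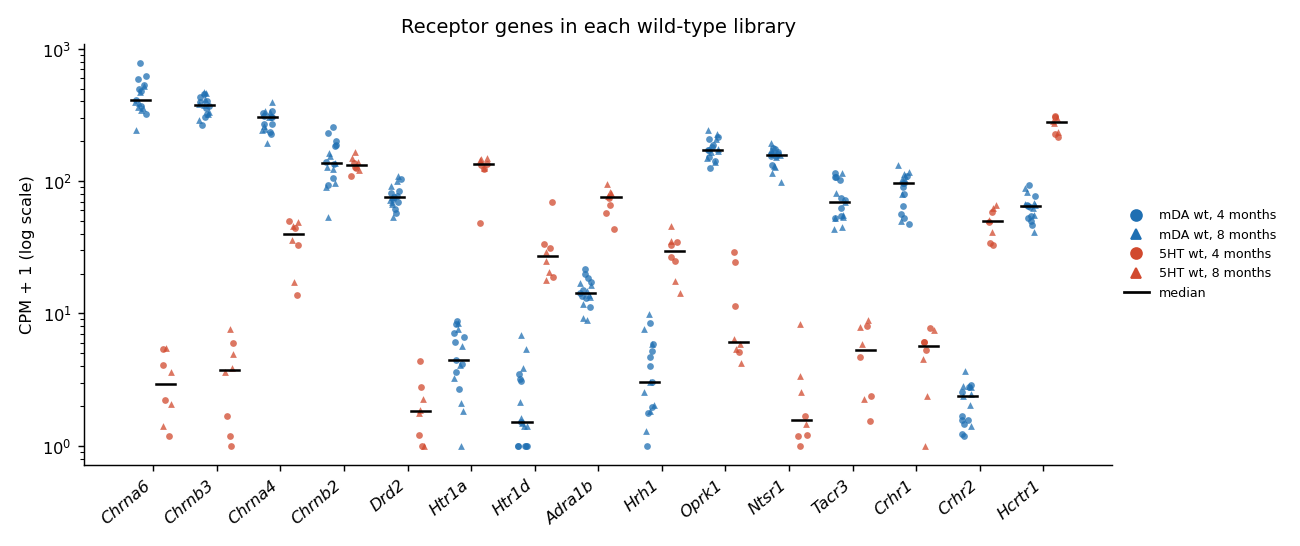
Level of 15 receptor genes in each of 25 wild-type libraries, as CPM + 1 on a log axis; blue points are mDA, red points 5HT, circles 4 months, triangles 8 months, and bars medians. Chrnb2 overlaps between the cell types while Chrna6, Chrnb3, Drd2 and Ntsr1 are high only in mDA and Htr1a, Hrh1 and Crhr2 only in 5HT.

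Of 68 tested peptide receptors 25 were higher in mDA and 7 higher in 5HT (within set1 18 and 4), against 11.3% and 10.4% of all genes. The 5HT share lay near that of all genes. At least 4-fold differences were called for 21 of the former and 3 of the latter, 35.3% of the list against 4.90% of all genes. Ntsr1, the neurotensin receptor, stood at 98.1, 157 and 191.7 CPM in mDA and at 0, 0.57 and 7.27 CPM in 5HT (7.54 ± 0.32, within set1 7.54). Oprk1, the kappa opioid receptor, stood at 124, 172 and 240.6 CPM in mDA and at 3.24, 5.11 and 28.2 CPM in 5HT (4.37 ± 0.23, within set1 4.16). The other opioid receptors were not called: Oprl1, the nociceptin receptor, had medians of 115 and 133 CPM, and Oprm1 had 2.24 and 2.74 CPM. Tacr3, a tachykinin receptor, stood at 42.4, 69.0 and 115 CPM in mDA and at 0.539, 4.27 and 7.92 CPM in 5HT (4.13 ± 0.32, within set1 3.87). The receptors of corticotropin-releasing hormone and its relatives were split: Crhr1 was at 46.5, 95.3 and 132 CPM in mDA and 0, 4.70 and 6.79 CPM in 5HT (4.54 ± 0.29, within set1 4.53). Crhr2 was at 0.191, 1.36 and 2.65 CPM in mDA and 31.8, 48.8 and 65.0 CPM in 5HT (-5.37 ± 0.29, within set1 -4.90). None of these called receptors overlapped between the groups, but genes with large changes were picked for description, which favours separate groups.

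Receptors of feeding and arousal signals were divided too. Lepr, the leptin receptor (3.73 ± 0.33, within set1 4.15), Mc3r, a melanocortin receptor (4.19 ± 0.56, within set1 3.64), and Ghsr, the ghrelin receptor (5.64 ± 0.78, within set1 6.12), were higher in mDA, with mDA medians of 20.2, 15.6 and 9.50 CPM and 5HT medians of 1.52, 0 and 0 CPM. Hcrtr1, an orexin receptor, was higher in 5HT, at 216, 280 and 311 CPM against 40.2, 63.8 and 91.6 CPM in mDA (-2.08 ± 0.13, within set1 -2.13), without overlap. Calcr, the calcitonin receptor, was likewise higher in 5HT (-2.44 ± 0.44, within set1 -1.96), with medians of 57.5 and 8.67 CPM. Npbwr1, a neuropeptide B and W receptor, had 795 counts over the mDA libraries and 1 count over the 5HT libraries, a ratio of 393 after depth with a 95% counting interval from 70.3 to 15500. Among growth factor receptors 8 of 29 were higher in mDA and 3 higher in 5HT, against 11.3% and 10.4% of all genes (within set1 9 and 1). Ret, the signalling receptor for glial-derived neurotrophic factors, stood at 648, 1110 and 1460 CPM in mDA and at 4.11, 42.9 and 56.4 CPM in 5HT (4.95 ± 0.26, within set1 5.00). Its co-receptor Gfra2 was higher in mDA (2.27 ± 0.28, within set1 2.15), while the co-receptor Gfra1 overlapped at medians of 158 and 156 CPM. Erbb4, a neuregulin receptor, was higher in mDA (2.98 ± 0.26), and Nrg1, a neuregulin, was higher in 5HT (-1.87 ± 0.28).

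AMPA receptor subunits were exchanged between the cell types. Gria3 stood at 187.03, 268.8 and 353 CPM in mDA and at 6.44, 19.8 and 40 CPM in 5HT (3.89 ± 0.19, within set1 4.15). Gria4 stood at 103, 171 and 230 CPM in mDA and at 405, 536 and 580 CPM in 5HT (-1.55 ± 0.13, within set1 -1.52). Neither overlapped. Per kilobase Gria2 was first in mDA, at 111 ± 10 RPKM (SD, n = 17) ahead of Gria3 at 52.7 ± 10.5, whereas in 5HT Gria4 at 93.3 ± 12.8 RPKM (SD, n = 8) and Gria2 at 91.0 ± 8.90 were within their spread of each other and Gria3 was at 3.88 ± 1.92. The kainate subunit Grik3 was higher in mDA (3.76 ± 0.30, within set1 3.84) and Grik2 higher in 5HT (-1.15 ± 0.15, within set1 -0.73). Of 7 NMDA receptor genes 4 were higher in mDA and 0 higher in 5HT, against 11.3% and 10.4% of all genes. The 4 were Grin2c (4.46 ± 0.37), Grin3a (1.76 ± 0.22), Grin2a (1.4 ± 0.26) and Grin2b (1.0 ± 0.14). The obligatory subunit Grin1 had medians of 127 and 120 CPM and was not called. Grm5, an excitatory metabotropic glutamate receptor, was higher in mDA at 90.9, 133 and 161.4 against 18.0, 35.4 and 62.5 CPM (1.72 ± 0.17, within set1 1.77), and Grm7, a presynaptic one, higher in 5HT (-1.25 ± 0.17, within set1 -1.15).

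Inhibitory receptor subunits differed in both directions. Of 15 GABA-A receptor genes 5 were higher in mDA and 4 higher in 5HT, against 11.3% and 10.4% of all genes. Gabrb2 (0.99 ± 0.15) and Gabra4 (1.52 ± 0.28) were higher in mDA, and Gabrb1 (-0.96 ± 0.14) and Gabre (-2.53 ± 0.48) higher in 5HT. The glycine receptor subunit Glra3 was higher in mDA (2.04 ± 0.26) and Glra2 higher in 5HT (-1.34 ± 0.19), while Glrb, the anchoring subunit, was not called. Over all 55 tested ionotropic receptors 21 were higher in mDA and 8 higher in 5HT, against 11.3% and 10.4% of all genes. Within set1 the numbers were 16 and 7, and the median difference of the list was 0.33.

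Of 88 potassium channel genes 19 were higher in mDA and 11 higher in 5HT, 34.1% of the list against 21.7% of all genes, the lowest share of the 16 lists. At least 4-fold differences were called for 11 in mDA and 0 in 5HT, 12.5% of the list against 4.90% of all genes. All 16178 genes gave 609 and 184, so a 0 in 5HT among 88 genes lies near the share of all genes. Within set1, 14 were called higher in mDA and 2 higher in 5HT, and with the sequencing set as a term in the model 16 and 4. Kcnd3, the pore subunit of A-type channels in dopaminergic neurons, stood at 225.6, 300 and 470 CPM in mDA and at 34.3, 52.2 and 86.8 CPM in 5HT (2.50 ± 0.15, within set1 2.36). Its paralog Kcnd2 was higher in 5HT, at 34.7, 53.4 and 80.9 CPM against 10.5, 16.7 and 37.2 CPM (-1.57 ± 0.20, within set1 -1.44). Per kilobase Kcnd3 exceeded Kcnd2 in mDA, at 44.1 ± 8.53 against 3.79 ± 1.49 RPKM (SD, n = 17), and the 2 lay closer in 5HT, at 8.02 ± 2.24 against 11.0 ± 2.96 RPKM (SD, n = 8). Among auxiliary subunits of this channel, Kcnip4 (2.75 ± 0.28, within set1 3.01) and Kcnip3 (2.03 ± 0.26, within set1 2.26) were higher in mDA. Dpp6 was higher in mDA by a small margin (0.38) and did not pass within set1 (0.37, adjusted p = 0.152). Kcnip1 (0.18) and Dpp10 (0.39) were not called.

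Kcnj6, the GIRK channel subunit that dopamine and GABA receptors open, stood at 81.4, 156 and 221 CPM in mDA and at 8.93, 32.4 and 41.9 CPM in 5HT, without overlap (2.32 ± 0.21, within set1 2.18). Its partners Kcnj3 and Kcnj9 were called higher in 5HT, at 5HT medians of 9.46 and 39.12 CPM (-1.11 ± 0.38 and -1.03 ± 0.27), and neither passed within set1 (-0.73 and -0.92, adjusted p = 0.395 and 0.118). Kcns3, a silent subunit that modifies delayed rectifiers, stood at 54.9, 102 and 128 CPM in mDA and at 0.177, 3.90 and 9.35 CPM in 5HT (4.80 ± 0.34, within set1 4.63). Kcnk2, a stretch-sensitive leak channel, was higher in mDA (2.39 ± 0.34, within set1 2.06). The sodium-activated channel gene Kcnt1, abundant in both cell types, had medians of 265.5 and 229 CPM and was not called, but passed with the sequencing set as a term (0.40, adjusted p = 0.0175) and without C250 and S369 (0.33, adjusted p = 0.0436).

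Among calcium, sodium and cation channels 25 of 96 were higher in mDA and 18 higher in 5HT, against 11.3% and 10.4% of all genes. Within set1 the numbers were 15 and 11, and the median difference of the list was 0.08. The T-type calcium channel gene Cacna1g stood at 178, 288 and 434 CPM in mDA and at 14.1, 29.6 and 50.2 CPM in 5HT (3.14 ± 0.18, within set1 3.32), without overlap. Cacna1d, the L-type channel linked to pacemaking in dopaminergic neurons, was not called at medians of 88.9 and 60.2 CPM (0.45 ± 0.17, adjusted p = 0.0602), nor was the N-type gene Cacna1b at 425.3 and 384 CPM. Cacna1d passed in 6 alternative settings, among them the sequencing set as a term (0.58, adjusted p = 0.0405) and leaving out S369 (0.71, adjusted p = 0.000932). The auxiliary gene Cacna2d3 was higher in mDA (1.84 ± 0.20) and Cacna2d1 higher in 5HT (-0.83 ± 0.11). Among sodium channels, Scn2a1 had medians of 408 and 410 CPM and was not called (0.07, 95% interval -0.12 to 0.26). Scn3a was higher in mDA at 463, 577 and 714 against 204, 290 and 334 CPM (1.02 ± 0.11, within set1 1.06), and Scn9a higher in 5HT at 250, 287 and 413 against 135, 176.3 and 216 CPM (-0.78 ± 0.11, within set1 -0.72). Of the pacemaker channel genes, Hcn3 had medians of 99.7 and 130 CPM (-0.37 ± 0.13, adjusted p = 0.0313; within set1 -0.10, adjusted p = 0.733), Hcn4 had 7.14 and 0.745 CPM (1.76 ± 0.58, within set1 0.88, adjusted p = 0.599), and Hcn2 was not called, but passed without S369 (1.31, adjusted p = 0.00929).

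TRP cation channels differed by subtype, 8 of 20 being higher in mDA and 4 higher in 5HT, against 11.3% and 10.4% of all genes. Trpc6 stood at 73.1, 116 and 169 CPM in mDA and at 0.539, 2.23 and 12 CPM in 5HT (4.86 ± 0.36, within set1 4.83), and Trpc4 was also higher in mDA (3.47 ± 0.42, within set1 3.84). Trpc7, of the same diacylglycerol-gated group as Trpc6, stood at 0.661, 3.36 and 10.6 CPM in mDA and at 23.9, 37.6 and 80.7 CPM in 5HT (-3.37 ± 0.29, within set1 -3.51). Asic2, an acid-sensing channel, was higher in 5HT at 69.3, 87.0 and 106 against 12.8, 21.4 and 34.5 CPM (-2.0 ± 0.16, within set1 -2.06). All 4 were separate between the groups. Of the genes for calcium release from internal stores, Ryr3 (1.94 ± 0.15) and Itpr1 (1.94 ± 0.23) were higher in mDA, and Itpr2 (-1.85 ± 0.25) and Ryr2 (-1.01 ± 0.20) higher in 5HT. Ryr2 did not pass at 8 months alone (-0.62, adjusted p = 0.148).

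Of 51 neuropeptide genes 14 were higher in mDA and 4 higher in 5HT, against 11.3% and 10.4% of all genes. Within set1 the numbers were 12 and 3, and with the sequencing set as a term 12 and 1. Cck, cholecystokinin, stood at 141, 272 and 450 CPM in mDA and at 0.339, 7.83 and 18.2 CPM in 5HT (5.04 ± 0.37, within set1 4.92). Vip, vasoactive intestinal peptide, varied widely between animals, from 22.0 through a median of 75.2 to 675 CPM in mDA, and was 0 to 6.90 CPM in 5HT (5.47 ± 0.89, within set1 5.28). Both were nevertheless separate. Grp, gastrin-releasing peptide, was higher in mDA at lower levels (5.16 ± 0.54, within set1 5.47), as was the neurotrophin Ntf3, at 15.2, 21.8 and 47.8 against 0, 0 and 1.03 CPM (8.10 ± 0.54, within set1 7.60). Trh, thyrotropin-releasing hormone (-2.37 ± 0.55, within set1 -2.33), and Pdyn, prodynorphin (-2.12 ± 0.48, within set1 -1.53), were higher in 5HT, with 5HT medians of 5.83 and 20.2 CPM and ranges that overlapped those of mDA; neither passed with the sequencing set as a term (-2.19 and -1.84, adjusted p = 0.0525 and 0.0541). Pdyn and the gene of its receptor, Oprk1, were higher in opposite cell types.

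Dense-core granule proteins included members higher in each. Chgb, chromogranin B, stood at 78.3, 121 and 212 CPM in mDA and at 524, 707 and 807 CPM in 5HT (-2.46 ± 0.12, within set1 -2.58), and Pcsk1, a prohormone convertase, was higher in 5HT (-1.70 ± 0.20, within set1 -1.90). Its relative Pcsk2 was higher in mDA (0.74 ± 0.13, within set1 0.68), as was Cadps2, a priming factor of granule release, at 72.3, 146 and 199 against 1.25, 3.77 and 13.6 CPM (5.03 ± 0.27, within set1 4.94). Over the list of 17, 4 were higher in mDA and 6 higher in 5HT, against 11.3% and 10.4% of all genes (within set1 5 and 5). In the machinery of synaptic release 10 of 47 were higher in mDA and 8 in 5HT, against 11.3% and 10.4% of all genes. Within set1 the numbers were 9 and 5. The complexins were exchanged, with Cplx1 higher in mDA at 367.4, 649 and 1170 against 79.0, 247 and 310 CPM (1.58 ± 0.22, within set1 1.01) and Cplx2 higher in 5HT at 341, 424 and 600 against 112, 167 and 293 CPM (-1.19 ± 0.14, within set1 -1.62). Sv2c, a vesicle protein of dopaminergic neurons (3.99 ± 0.34, within set1 3.56), and the calcium sensors Syt17 (3.26 ± 0.34, within set1 3.63) and Syt7 (2.30 ± 0.15, within set1 2.27) were higher in mDA. The core release genes Snap25 (medians of 1120 and 1390 CPM) and Syt1 (1030 and 1300 CPM) were not called, though Syt1 passed with the sequencing set as a term (-0.36, adjusted p = 0.0262) and without S369 (-0.31, adjusted p = 0.0341).

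Calcium-binding proteins, which mark subsets of both cell types, were divided 6 to mDA and 8 to 5HT of 24 tested (within set1 3 and 6). Over all genes 11.3% were higher in mDA and 10.4% higher in 5HT. Calb1, calbindin, was higher in mDA at 77.1, 143 and 191 against 27.6, 35.7 and 76.3 CPM (1.75 ± 0.16, within set1 1.36), and Necab1 likewise (2.78 ± 0.22). Necab2 (-2.38 ± 0.18) and Ncald (-1.79 ± 0.13) were higher in 5HT. Calb2, calretinin (0.94 ± 0.20, within set1 0.59, adjusted p = 0.159), was called higher in mDA with overlap and did not pass within set1. Among 55 G-protein signalling genes 13 were higher in mDA and 9 higher in 5HT (within set1 9 and 6), against the same shares of all genes. Those higher in mDA included Rgs6, a regulator of inhibitory G proteins (3.17 ± 0.37), and Adcy1, an adenylyl cyclase (1.57 ± 0.13). Those higher in 5HT included the protein kinase C gene Prkcq (-2.51 ± 0.49) and the cyclic nucleotide phosphodiesterase gene Pde2a (-1.39 ± 0.11).

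Of 218 transcription factors 61 were higher in mDA and 24 higher in 5HT, against 11.3% and 10.4% of all genes. Within set1 the numbers were 48 and 16. The median difference was 0.40, and the 5HT share lay near that of all genes. In the list of dopaminergic identity, which also holds the enzyme gene Aldh1a1, 16 of 18 members were higher in mDA and 0 higher in 5HT. Nr4a2 stood at 140, 200 and 251 CPM in mDA and at 0, 1.86 and 9.49 CPM in 5HT (6.57 ± 0.34, within set1 6.50). Pitx3 (6.59 ± 0.57), Otx2 (6.15 ± 0.59), Foxa2 (6.12 ± 0.45) and Sox6 (5.12 ± 0.45) had mDA medians of 12.9, 12.2, 20 and 29.5 CPM and 5HT medians of at most 0.598 CPM. All 5 were separate between the groups, which was not weighed against the share of all genes. Within set1 their differences ran from 5.05 to 7.17. The list was drawn up from factors known for this cell type. Lmx1b, used in the development of both, was low in both, at medians of 2.10 and 2.22 CPM, and not called; Ebf2 was the other member not called.

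The serotonergic identity list was not one-sided. Of 12 tested members 3 were higher in 5HT, 5 higher in mDA and 4 not called. Over all genes 10.4% were higher in 5HT and 11.3% higher in mDA. Foxa2, En1, En2 and Lmx1b stand in both lists. Fev stood at 0, 0.651 and 3.53 CPM in mDA and at 15.5, 37.7 and 73.2 CPM in 5HT (-5.33 ± 0.36, within set1 -4.60). Gata2 stood at 0.222, 1.54 and 4.29 against 58.7, 74.5 and 106 CPM (-5.48 ± 0.28, within set1 -5.54). Gata3 stood at 0.294, 4.99 and 14.5 against 129, 145 and 184 CPM (-4.91 ± 0.31, within set1 -4.91). The 3 genes were separate between the groups. En1, an engrailed homeobox factor of the midbrain and hindbrain border, was present in both and higher in mDA at 85.4, 111 and 156 against 18.8, 23.4 and 48.5 CPM (2.14 ± 0.15, within set1 2.13). Insm1, a zinc-finger factor of monoamine neuron development, had 539 counts in mDA and 1 count in 5HT, a ratio of 266 with a 95% counting interval from 47.6 to 10500.

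**Figure D3:**
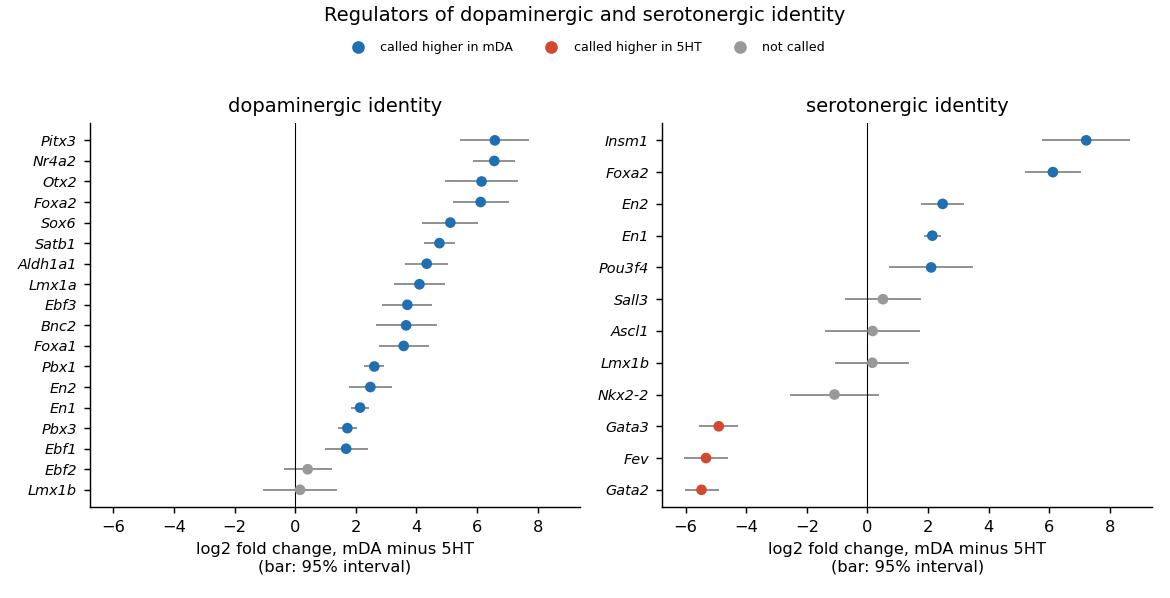
Log2 fold change of mDA minus 5HT, with 95% intervals, for the tested members of the lists of dopaminergic (18) and serotonergic identity (12); blue members were called higher in mDA, red ones higher in 5HT and grey ones were not called. The dopaminergic list lies on 1 side with 16 calls, while the serotonergic list has Gata2, Fev and Gata3 below 0 and 5 members above it; the Insm1 value rests on 1 count in 5HT.

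Beyond these lists, Foxp2, a forkhead factor, stood at 86.6, 121 and 154 CPM in mDA and 0.415, 4.38 and 9.37 CPM in 5HT (4.69 ± 0.26, within set1 4.77). Pou3f2, a POU factor, stood at 93.5, 160 and 256 against 0, 11.0 and 22.7 CPM (3.99 ± 0.41, within set1 3.74), and Lmo4, a LIM-domain cofactor, at 56.6, 92.1 and 120 against 7.76, 8.99 and 14.2 CPM (3.11 ± 0.17, within set1 2.72). None overlapped. Higher in 5HT were Id4, an inhibitor of bHLH factors (-3.08 ± 0.26, within set1 -2.86), Dach1 (-3.41 ± 0.30, within set1 -3.06) and the homeobox gene Hmx2 (-5.72 ± 0.76, within set1 -6.23), the last at a 5HT median of 5.70 CPM. Of 33 nuclear receptors 7 were higher in 5HT and 2 higher in mDA, so that 27.3% were called, near the 21.7% of all genes. Nr3c1, the glucocorticoid receptor, stood at 14.5, 23.7 and 31.7 CPM in mDA and at 140, 175.01 and 236.9 CPM in 5HT, without overlap (-2.86 ± 0.13, within set1 -2.75). Esr2, an oestrogen receptor, was higher in 5HT (-2.77 ± 0.56, within set1 -2.66) with overlap, and Pgr, the progesterone receptor, higher in mDA at 32.3, 44.1 and 75.8 against 9.49, 21.3 and 31.5 CPM (1.13 ± 0.18, within set1 1.05). Of 31 HOX genes, which pattern the hindbrain and spinal cord, 29 had too few counts to test, and Hoxa9 and Hoxd10 were not called.

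Guidance and adhesion genes were called in 55 of 98 cases, 56.1% against 21.7% of all genes, with 38 higher in mDA and 17 higher in 5HT (within set1 35 and 12). Ntn1, netrin, stood at 88.3, 146 and 180 CPM in mDA and 0.617, 8.55 and 21.8 CPM in 5HT (4.31 ± 0.26, within set1 4.71). The ephrin receptor Epha4 was at 63.0, 98.0 and 174.9 against 0.206, 6.37 and 23.5 CPM (3.92 ± 0.31, within set1 4.24). Nrxn3, a presynaptic adhesion protein, was at 458, 699 and 965 against 106.99, 152 and 178 CPM (2.18 ± 0.13, within set1 2.13). Plxnd1, a semaphorin receptor, went the other way, at 2.06, 3.33 and 10.9 against 19.3, 34.0 and 56.6 CPM (-3.13 ± 0.25, within set1 -3.40), as did Sema6a (-1.63 ± 0.19) and Opcml (-1.37 ± 0.12). These groups did not overlap. Plxnd1 is also expressed by endothelial cells, whose marker sums of 8.6 to 58.3 CPM in mDA and 31.3 to 112 CPM in 5HT moved with it; their part was not tested.

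Outside the 16 lists, the named mDA genes included Rreb1, a Ras-responsive zinc-finger factor, at 930, 1190 and 1640 CPM in mDA and 8.43, 24.3 and 55.7 CPM in 5HT (5.56 ± 0.26, within set1 5.59). Gucy2c, a guanylyl cyclase receptor, stood at 46.7, 77.0 and 112 against 0, 0.519 and 7.01 CPM (6.63 ± 0.39, within set1 6.81). Anxa1, an annexin, stood at 9.77, 28 and 44.8 against 0, 0.172 and 0.771 CPM (8.06 ± 0.46, within set1 7.56). Fgf20, a growth factor of dopaminergic neurons, stood at 2.42, 24.1 and 38.2 against 0, 0 and 1.38 CPM (7.87 ± 0.71, within set1 7.38). Each was separate between the groups. On the 5HT side, Tns1, a focal adhesion protein, stood at 5.54, 16.8 and 43.6 CPM in mDA and 211, 298 and 467 CPM in 5HT (-4.19 ± 0.21, within set1 -4.16). Stard13, a GTPase-activating protein, stood at 0.434, 5.37 and 16.4 against 77.3, 100 and 151 CPM (-4.33 ± 0.32, within set1 -3.99), and Nxph4, a neurexophilin, at 1.27, 5.00 and 11.7 against 32.9, 89.6 and 144 CPM (-4.10 ± 0.28, within set1 -3.81). Cryba2, a crystallin gene, stood at 0, 0.22 and 2.00 against 18.9, 26.6 and 46.8 CPM (-5.91 ± 0.47, within set1 -5.24). The proton-sensing receptor gene Gpr4 (-4.26 ± 0.38), Il1r1 (-4.16 ± 0.48) and A2m (-3.53 ± 0.39) were higher in 5HT and are known from vascular or glial cells as well; the medians of summed endothelial markers were 19.5 and 85.2 CPM and of summed microglial markers 69.8 and 109 CPM, and their part in these values was not tested.

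**Figure D4:**
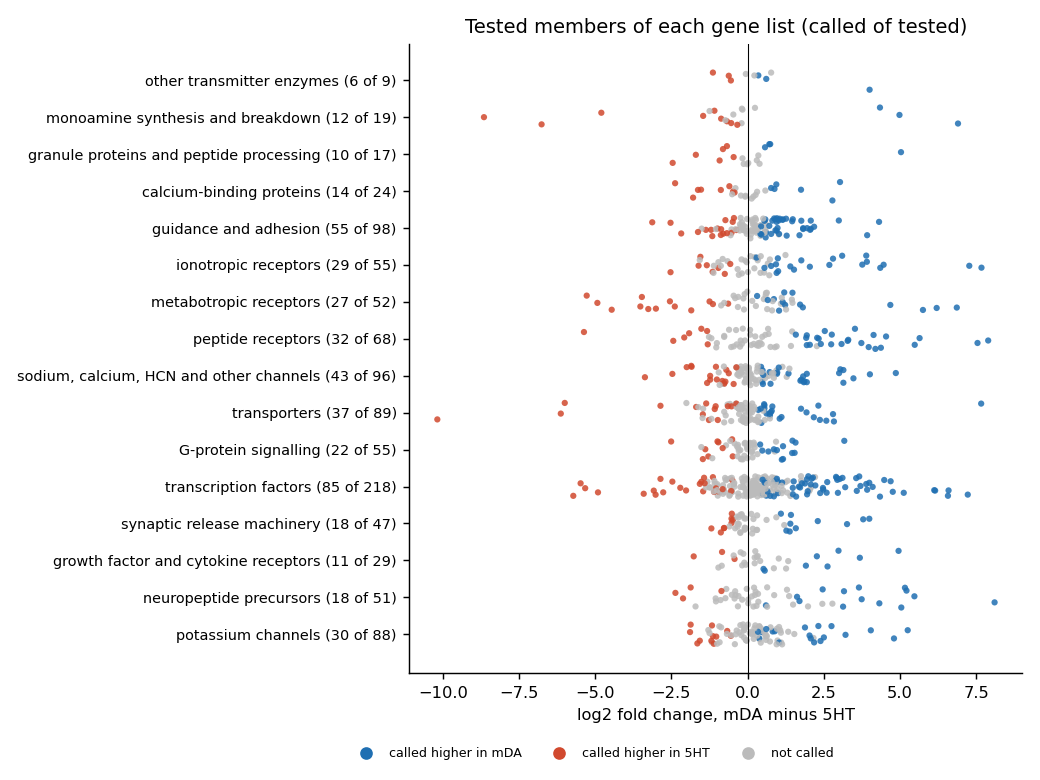
Log2 fold change of mDA minus 5HT for every tested member of 16 gene lists, ordered by the share of members called; blue members were called higher in mDA, red ones higher in 5HT and grey ones were not called. Called shares run from 34.1% of potassium channels to 66.7% of other transmitter enzymes, against 21.7% of all genes.

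The difference between the cell types was also estimated at each age. At 4 months 1691 genes were called and at 8 months 2763; 1014 were called at both, 60% of the former and 36.7% of the latter, and 1010 of them in the same direction. The animals of the 2 ages were different, but both estimates come from 1 fit. A change of the difference with age was called for 23 genes (0.142%; edgeR quasi-likelihood test), with 2403 at an unadjusted p under 0.05 and 272 called by DESeq2. Among the 475 named genes, 4 were called. Oprk1 was at 172 ± 29.9 CPM (SD, n = 9) and 183 ± 36.9 CPM (SD, n = 8) in mDA at 4 and 8 months, and at 16.5 ± 11.2 and 4.46 ± 0.916 CPM in 5HT (SD, n = 4 each), so its difference rose from 3.35 to 5.39. Grin2c was at 16.6 ± 7.51 and 31.1 ± 11.5 CPM in mDA and 2.30 ± 1.39 and 0.483 ± 0.336 CPM in 5HT, and its difference rose from 2.79 to 6.13. Phldb2, a membrane and cortex scaffold gene, was at 118 ± 25.3 and 134 ± 36.1 CPM in mDA and 5.32 ± 3.67 and 1.63 ± 0.487 CPM in 5HT. Ntsr1 was at 159 ± 13.3 and 142 ± 30.9 CPM in mDA and 0.266 ± 0.290 and 2.91 ± 3.01 CPM in 5HT, the last 2 from 4 and 60 counts in all. The 5HT groups at 4 and 8 months held 338 and 100 counts of Oprk1, 46 and 11 of Grin2c and 108 and 37 of Phldb2. The direction of each was the same at both ages.

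**Figure D5:**
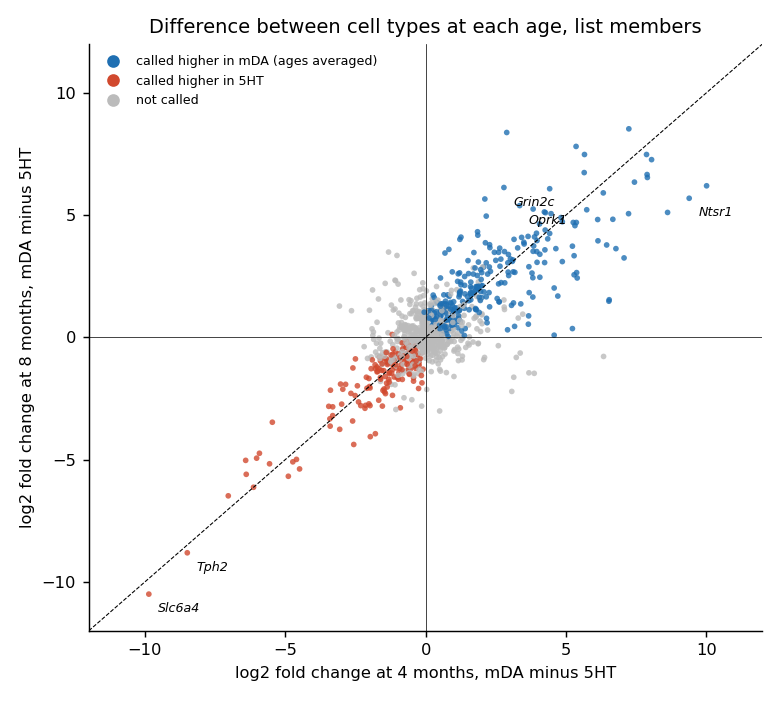
Log2 fold change of mDA minus 5HT at 4 months (x axis) and at 8 months (y axis) for tested members of the 16 lists; blue and red members were called higher in mDA or in 5HT with the ages averaged, grey ones were not called, and the dashed line marks equal differences. Tph2 and Slc6a4 lie near the line, while Ntsr1 lies below it (9.39 and 5.69) and Grin2c above it (2.79 and 6.13).

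Of 316 named genes that were called, 315 could be tested within set1. All 315 had the same sign there, and 242 were also called. Set1 holds 7 of the mDA and all 8 of the 5HT libraries of the full comparison, so it is not an independent test. Of the 316, 195 were called in every alternative setting in which they could be tested.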

How the data were processed

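Per the submitters' processing notes, the authors aligned the Smart-seq2 libraries of sorted neurons with STAR (version 2.7.0a) and used the GRCm38 build. How reads were counted, and with which strand setting, is not stated in the labels. Values are the deposited raw counts per gene, with 24564 genes; a final row for the reporter (at most 0.00294% of counts) was left out. Genes were filtered (edgeR 4.0.16, minimum count 10), scaled by TMM and tested in R 4.3.3 by the quasi-likelihood test with 4 groups of cell type and age and sex as a covariate, on wild-type libraries alone, averaging the ages. CPM values use TMM library sizes; RPKM divides by transcript length. Adjusted p-values are Benjamini-Hochberg over all 16178 genes tested. The code was tested on simulated data. Each library is 1 animal, and no replicate numbers are shared between groups.

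Members and gene lists were chosen with earlier results of these data known. Named genes are, per list subgroup, up to 5 called genes per direction with the largest change at a mean log2 CPM of at least 1 and up to 3 uncalled genes with the highest level, some genes fixed by name, and up to 12 per direction in no list at a mean log2 CPM of at least 3. The genes described are a choice from these 475, made with values seen. Picking called genes by the size of their change favours groups that do not overlap. The share of all tested genes without overlap is not given here, so the separation of named genes cannot be weighed against it. Counting intervals (95%, exact) cover counting error only. Alternatives were each age alone, RLE scaling, no filter, no sex term, sequencing set as a term, set1 alone, leaving out each 5HT library, leaving out C250 and S369 (chosen after seeing the data) and DESeq2 1.42.0. Some named genes are not reported here.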

Additional observations from a re-analysis of the deposited data

Results flagged for a closer look

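In 46 genes, each of the 4 groups of cell type and age was searched for a library far from the rest of its group. Dixon's ratio at the 95% level was used, and 21 of 184 gene and group pairs held one. Chance flags about 1 in 20 for normally distributed values. Several of these groups lie near 0 CPM, where that rate does not hold, so the 21 cannot be weighed against chance. Library S369 (5HT, 4 months) held 4 of them: Slc18a2 at 1560 CPM (others 2520 to 2710), Htr1a at 47.4 CPM (others 122 to 133), Kcnd3 at 86.8 CPM (others 51.6 to 52.5) and Gata3 at 184 CPM (others 133 to 141). Library S381 (5HT, 8 months) held Cacna1g at 14.1 CPM (others 28.5 to 30.4) and Trpc6 at 12 CPM (others 1.08 to 2.16). Th was low in the shallowest mDA library, C250 (1020 CPM, others at 8 months 1630 to 2120), high in the 5HT library S382 (35.6 CPM, others 13.9 to 17.3) and low in S374 (3.06 CPM, others 13.0 to 14.9).

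Serotonergic genes stood out in single mDA libraries: Tph2 at 27.7 CPM in D147 (others 1.27 to 4.24), Slc6a4 at 10.6 CPM in D296 (others 0.222 to 4.59), Maob at 14.8 CPM in C240 (others 4.78 to 8.03) and Fev at 3.53 CPM in C45 (others 0 to 1.21). Dopaminergic genes stood out in single 5HT libraries at low levels: Chrnb3 at 4.95 CPM in S373 (others 0 to 0.678), Cadps2 at 5.83 CPM in S373 (others 2.34 to 2.71), Cck at 12.8 CPM in S367 (others 0.339 to 2.30), Ret at 56.4 CPM in S383 (others 42.6 to 44.2) and Ntf3 at 1.03 CPM in S385 (others 0). The remaining ones were Slc17a8 at 60.9 CPM in S385 (others 47 to 48.8), Ret at 1460 CPM in the mDA library C248 (others 908 to 1170) and Ntf3 at 35.7 CPM in the mDA library C49 (others 18.4 to 21.9).

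The difference between the cell types changed between 4 and 8 months, by the edgeR quasi-likelihood test of that change itself, for 4 named genes: Oprk1 by 2.04 (log2, adjusted p = 0.0265), Ntsr1 by -3.70 (adjusted p = 0.0265), Grin2c by 3.34 (adjusted p = 0.0324) and Phldb2 by 1.99 (adjusted p = 0.0354). The 5HT groups behind each change held 4 libraries per age.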

How the results depend on the processing

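Against 1835 genes higher in mDA, 1678 higher in 5HT and 23 whose difference changed with age, 4 months alone gave 952 and 739, 8 months alone 1462 and 1301, RLE scaling 1934, 1587 and 25, no filter 2065, 1516 and 17, no sex term 1857, 1730 and 15, sequencing set as a term 1385, 1271 and 56, set1 alone 1009, 987 and 25, leaving out C250 and S369 2145, 1728 and 18, and DESeq2 2336, 1790 and 272. Leaving out 1 5HT library at a time gave 1714 to 2356, 1374 to 1872 and 2 to 77; the count of age changes was 77 without S374, 51 without S367, 11 without S382, 5 without S381, 4 without S385 and 2 without S383. No filter moved the median of all genes to 0.155, from 0.031. Pclo reversed at 8 months alone (0.12, against -0.53), and Chrna2, not called before, was called higher in mDA without S369 (3.18, adjusted p = 0.0464), and lay between -0.41 and 3.18 when each 5HT library was left out in turn. Of 316 named calls, 85 were lost at 4 months alone, 64 at 8 months alone, 73 in set1 alone and 59 with set as a term. Leaving out 1 5HT library lost 15 to 25. Set1 alone and the runs without a library used fewer libraries, and the cause of the losses was not tested. No paired analysis was possible because the groups share no animals or replicate numbers. Depth limits the low genes: under about 1.82 CPM, a level is not detectable in every library.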
